A study of Bombus terrestris with 8 samples.

Results

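A set of 1871 regions of open chromatin in *B. terrestris* had a peak in every egg, pupa and adult sample and in neither larva sample. They were chosen by the peak calls alone. The distinct peak intervals of all 8 samples on the 18 placed chromosomes of the Bter_1.0 assembly were merged wherever they overlapped by at least 1 bp, which gave 52844 regions, and the 1871 members make up 3.54% of them. Since the calls of all 8 samples define the members, their number and their strength in the 6 other samples are given as a description, and no test was run on them.

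ATAC-seq, in which a transposase cuts accessible DNA and tags the cut ends for sequencing, was performed on the whole body of workers of the buff-tailed bumblebee. The 4 groups were the egg, the larva, the pupa and the adult, each with 2 replicates and none with a treatment. The adult replicates were individual workers, while each egg, larva and pupa replicate was pooled to about the volume of 1 adult, so that the samples of these stages average over several animals from commercial colonies. All samples mix the cell types of the body, so fewer cells with an open site and a weaker opening in each cell cannot be told apart.

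Promoters and enhancers are the DNA elements that switch genes on, and they become accessible to the transposase when nucleosomes are moved aside by bound factors. Many promoters of genes that every cell uses are open throughout life, whereas enhancers often open in particular tissues or stages. In an insect with complete metamorphosis, such as a bumblebee, the larva is the feeding and growing stage, and most adult tissues are built or remodelled in the pupa. A peak marks a place where the cut ends exceeded the local background of the same library far enough to pass the threshold. A region without a larval peak is thus one where this threshold was not passed in the larva, which is not a measurement of closed chromatin.

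The peak lists of the larva were the shortest and, by P value, the weakest. On the placed chromosomes, larva replicates 1 and 2 had 11768 and 7875 intervals, against 20993 to 31105 in the other 6 samples. The median −log10 (P value) of an interval was 9.56 and 8.09 in the larva and between 10.96 and 14.4 elsewhere. By fold enrichment they lay below the egg but above the pupa and adult, with a median of 3.63 and 3.74 in the larva against 3.74 and 3.79 in the egg, 3.41 and 3.07 in the pupa, and 3.39 and 2.71 in the adult. The lists do not give the reads behind a peak, and the mapped reads that the study states for each sample were not used here.

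Of all regions, 9093 had a peak in each of the 6 egg, pupa and adult samples. Among them, 1871 (20.6%) had no larval peak, 2342 (25.8%) had a peak in 1 larva sample, and 4880 (53.7%) had a peak in both. The larva replicates did not contribute evenly. The peak was missing in larva replicate 1 for 2099 (23.1%) of the 9093 regions and in larva replicate 2 for 3985 (43.8%), so that the rule would give 3985 regions without larva replicate 1. Of the regions with 1 larval peak, 2114 had it in replicate 1 and 228 in replicate 2.

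The same rule was applied to each of the other stages. Regions missing only in the egg numbered 16 of the 5040 regions that had a peak in all 6 samples of the other stages (0.317%). For the pupa the number was 84 of 5074 (1.66%), and for the adult 148 of 5168 (2.86%). In the lists as deposited, the larva thus had more such regions than any other stage. This order did not hold when list length was equal. When each list was shortened to its 7875 strongest intervals, the length of the shortest list, the regions missing only in the larva fell to 72 of 3400 (2.12%), compared with 29 of 3183 (0.911%) for the egg, 84 of 3191 (2.63%) for the pupa and 154 of 3160 (4.87%) for the adult. In the shortened lists, missing means absent from the 7875 strongest intervals, so a weaker peak of that stage can remain in the full list. Of those 72 regions, 38 (52.8%) overlapped a member, and 38 of the 1871 members (2.03%) overlapped 1 of them. The rest of the 72 lay in regions that had a larval peak in the lists as deposited.

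**Figure D1:**
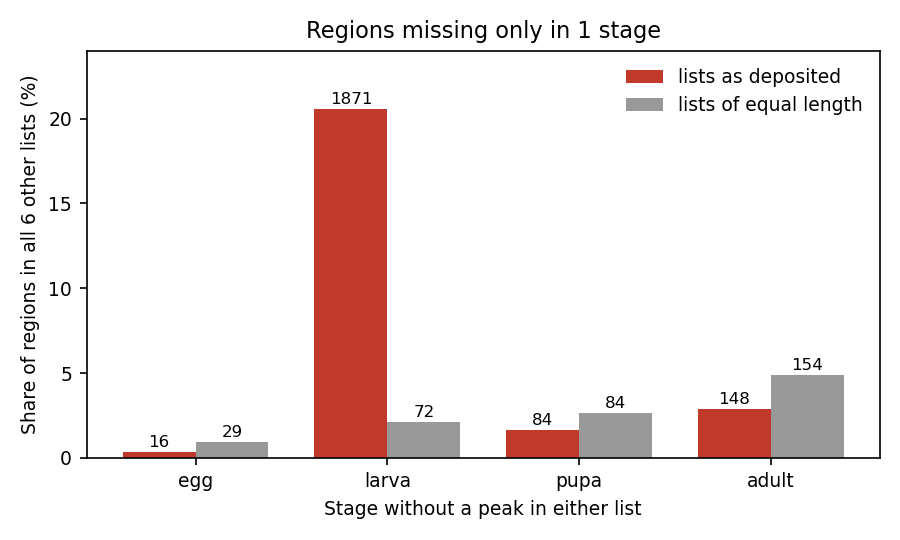
Bars give the share (%) of regions with a peak in all 6 samples of the other stages that lack a peak in both samples of the stage named on the x axis, with the number of regions above each bar. The larva stands at 20.6% in the lists as deposited and at 2.12% in lists of 7875 intervals each, where the adult is highest with 4.87%. In the shortened lists, a region counts as lacking a peak if it has none among the 7875 strongest intervals.

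Strength was measured by the percentile rank of a peak within its own list, by −log10 (P value), from 0 for the weakest to 100 for the strongest interval on the placed chromosomes. A rank was used because the values of different libraries were not normalised to each other. Where several intervals of a list fell in a region, the best was taken, and the mean over the 6 samples is called the mean rank. The members were sites of middle strength in the egg, pupa and adult. Their mean rank had a median of 53.8, with quartiles of 43.5 and 63.8, and it ran from 7.53 to 96.7. Regions with 1 larval peak had a median of 67.2, and regions with a peak in both larva samples one of 86.3, with quartiles of 74.5 and 93.5.

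Strong sites seldom lacked a larval peak. Among the 9093 regions put into deciles by mean rank, the share without any larval peak was 60.1% (95% Clopper-Pearson interval 56.8% to 63.3%) in the weakest decile, which reached up to a mean rank of 45.4. It was 49.2%, 37.2%, 26.7% and 18.1% in the next 4 deciles and 8.91% in the sixth. In the strongest 4 deciles it was 3.96%, 1.21%, 0.22% and 0.110% (0.00278% to 0.611%). Without larva replicate 1 the share in the strongest decile was 0.769%, and without egg replicate 2 it was 0.402%. The strongest 4 deciles, with mean ranks of 80.1 and above, held 36, 11, 2 and 1 of the members. The intervals cover counting error only, and neighbouring regions are not independent. Put into deciles by fold enrichment in place of −log10 (P value), the share went from 50.9% in the weakest to 0.110% in the strongest. The same held in each sample on its own. When the regions were ordered by the rank in a single list, the share without a larval peak was 49.4% ± 6.63 (SD, n = 6 lists) in the weakest decile and 0.916% ± 0.654 (SD, n = 6 lists) in the strongest.

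**Figure D2:**
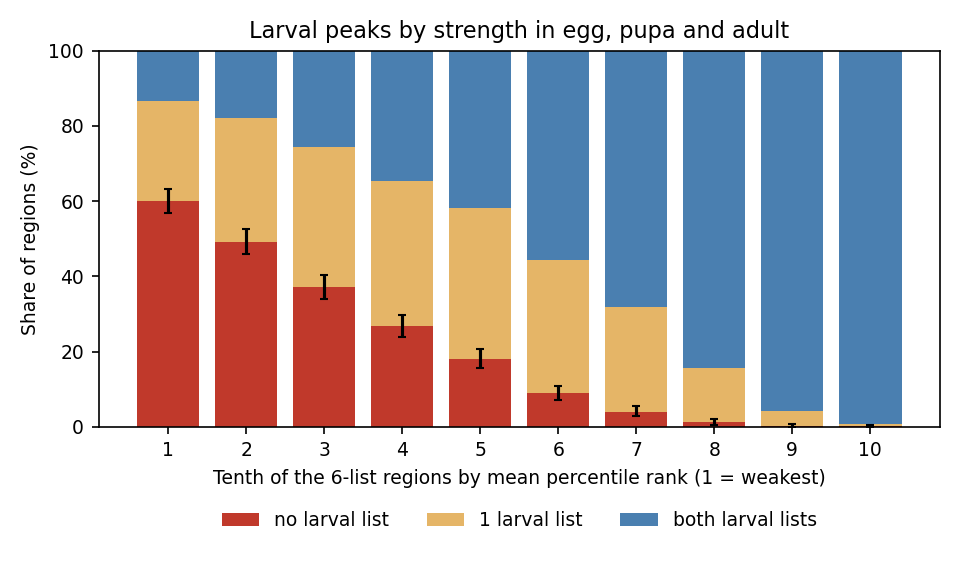
Stacked bars divide the 9093 regions found in all 6 egg, pupa and adult samples into those with a peak in no larva sample, in 1 or in both (%), by decile of the mean percentile rank (1 is the weakest). Error bars are 95% Clopper-Pearson intervals of the share without a larval peak, which goes from 60.1% in decile 1 to 0.110% in decile 10.

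The weaker regions also held the weaker larval peaks. In larva replicate 1, the median percentile rank of the peak was 43.9 for the 2114 regions found in that larva sample alone and 77.1 for the regions found in both. For larva replicate 2 these values were 28.0 over 228 regions and 66.2. The groups were formed from these same larval calls, so a lower rank for a peak missed in the other larva sample could be foreseen. The order from strong larval peaks, through weaker peaks in 1 larva sample, to none in the members is thus a description only.

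Most members had a mean rank above the middle of the lists, but a smaller share than among the other regions found in the 6 samples. A mean rank above 50 was found for 1124 members (60.1%), above 75 for 121 (6.47%) and above 90 for 3 (0.160%), while 64 (3.42%) lay under 25. Among regions with 1 larval peak, 84.1% lay above 50, 30.4% above 75 and 2.35% above 90. Among regions with a peak in both larva samples, 96.0% lay above 50, 74.1% above 75 and 38.3% above 90. In single lists, 45.8% of members ranked above 50 in egg replicate 2 and 49.9% in adult replicate 1, against 60.2% to 76.6% in the others. Only 278 members (14.9%) ranked above 50 in each of the 6 lists, and 60 (3.21%) ranked under 50 in each.

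The members ranked differently from list to list. Their median percentile rank was 57.2 and 47.1 in egg replicates 1 and 2, 58.2 and 67.4 in the pupa, and 49.4 and 58.3 in the adult. Pupa replicate 2 was the highest and egg replicate 2 the lowest. Averaged by stage, the pupa came to 62.8 ± 6.50 (SD, n = 2), the adult to 53.9 ± 6.28 (SD, n = 2) and the egg to 52.2 ± 7.12 (SD, n = 2). The pupa mean lay above the others by somewhat more than 1 SD, while the lower pupa sample was below the higher adult sample. For regions with a peak in both larva samples the 6 medians ran only from 86.6 to 89.9.

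**Figure D3:**
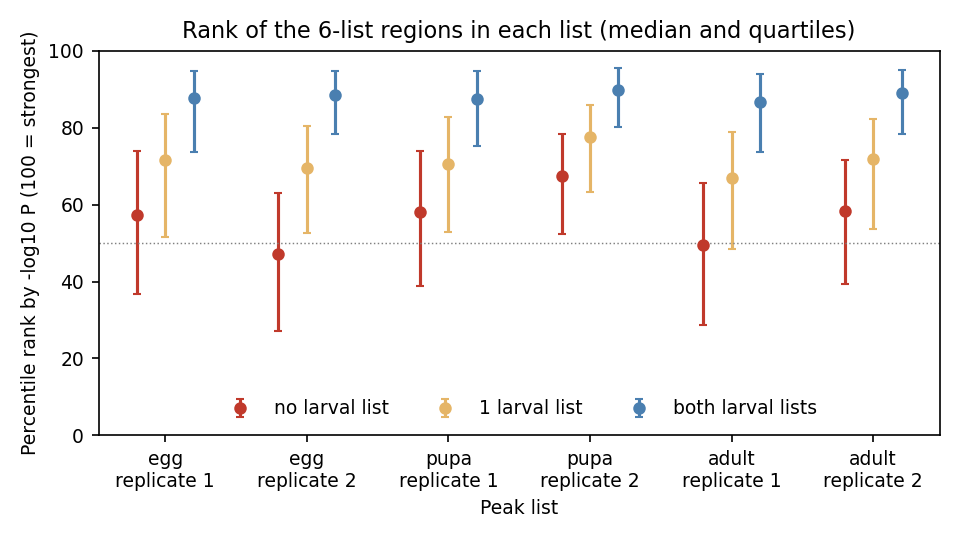
Points give the median and bars the quartiles of the percentile rank by −log10 (P value) in each egg, pupa and adult list, for regions with a peak in no larva sample, in 1 or in both. The members lie lowest in all 6 lists, with medians from 47.1 in egg replicate 2 to 67.4 in pupa replicate 2.

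The median fold enrichment of the members over the local background was 4.0 and 3.70 in the egg samples, 3.75 and 3.84 in the pupa samples, and 3.39 and 2.97 in the adult samples. In regions with a peak in both larva samples it was 6.25 and 6.60, 5.89 and 5.22, and 5.88 and 4.70. The median −log10 (P value) of the members was 12.7, 12.4, 14.5, 23.5, 10.9 and 14.2 in the same order of samples. A value above 20 was reached by 60.7% of the members in pupa replicate 2 but only 17.9% in adult replicate 1, with the others between 22.2% and 31.8%. Over all intervals of these lists, the share was 38.1% in pupa replicate 2 and 28.6% in adult replicate 1. In the others it lay between 25.9% and 34.7%. Members were thus well above the share of the whole list only in pupa replicate 2.

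Within 1 member the rank varied widely, with a median gap of 48.9 percentile points between its highest and lowest list. This gap was 37.4 for regions with 1 larval peak and 15.7 for regions with both. Across the 1871 members, the Spearman correlation of −log10 (P value) between the 2 replicates of a stage was 0.171 to 0.726, and between samples of different stages it was 0.00624 to 0.402. Across the 4880 regions with a peak in both larva samples it was 0.653 to 0.918 and 0.580 to 0.820. The lowest value within a stage came from the egg in both sets. For the members, the egg samples correlated at 0.171, below egg replicate 1 with pupa replicate 1 (0.386) and egg replicate 2 with adult replicate 2 (0.402), so the egg means average 2 lists that ordered the members differently. In regions with both larval peaks, these values were 0.653, 0.796 and 0.820. The points of each correlation share their libraries, and the values are a description without a test.

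The 6 members that ranked highest in their weakest list were strong in every egg, pupa and adult sample. The first was NC_015764.1 from 14450318 to 14451509, 1192 bp wide. Its fold enrichment was 8.72 and 7.54 in egg replicates 1 and 2, 7.61 and 6.86 in the pupa, and 6.83 and 5.02 in the adult, with a −log10 (P value) of 69.4, 49.4, 82.5, 114, 95.4 and 90.1. By the latter it stood at place 226 of 31105 intervals in pupa replicate 2 and at place 2674 of 23907 in egg replicate 2, its lowest rank. It was the 1 member in the strongest decile, and the nearest region with a larval peak, which had a peak in all 8 samples, lay 1001 bp away.

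The second, NC_015768.1 from 659663 to 660244, was 582 bp wide. Its fold enrichment was 8.32 and 7.46 in the egg, 6.69 and 5.61 in the pupa, and 8.01 and 5.54 in the adult, and its −log10 (P value) lay between 48.0 and 86.2. All 6 samples placed it above the 88th percentile, and no other region with a larval peak was found within 2823 bp. On the same chromosome, the fold enrichment of NC_015768.1 from 1517136 to 1517702 was 7.09 and 8.16 in the egg, 8.03 and 6.53 in the pupa, and 6.78 and 5.88 in the adult. NC_015768.1 from 2109692 to 2110186 had 7.61 and 7.01, 8.67 and 6.93, and 6.48 and 5.47. Thus 3 of the 6 lay on NC_015768.1.

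The other 2 were NC_015776.1 from 6051770 to 6052148 and NC_015772.1 from 4021953 to 4022656. The former was narrow, with 379 bp, and had a fold enrichment of 6.83 and 8.96 in the egg, 5.96 and 6.11 in the pupa, and 6.18 and 5.57 in the adult. In the latter it was 5.62 and 6.53, 6.63 and 6.69, and 6.08 and 5.05. Over all 6 members, the summits of the 6 samples lay within 16 to 56 bp of each other, and their nearest region with a larval peak was 1001 to 7926 bp away.

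**Figure D4:**
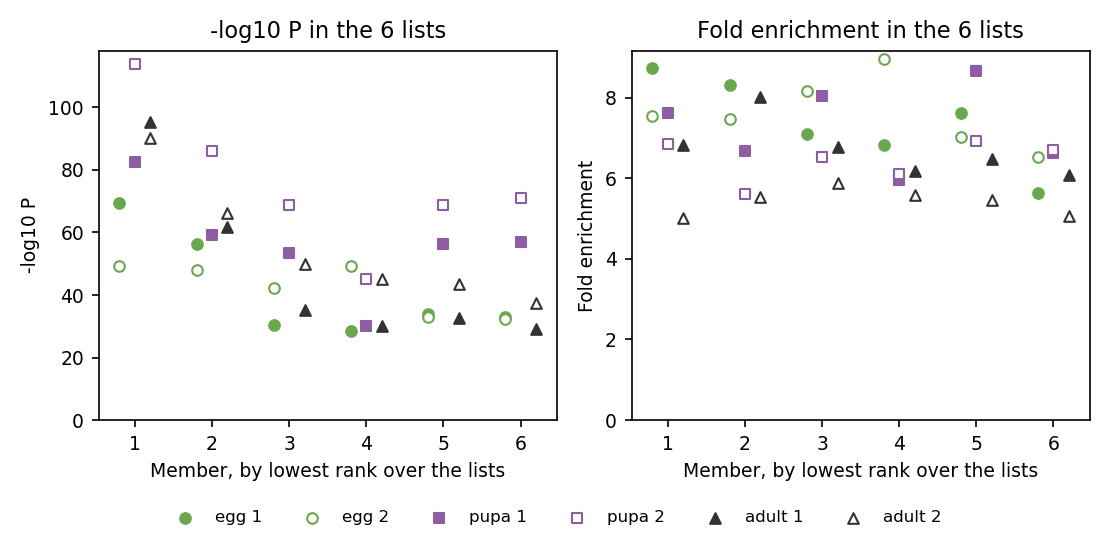
Each point is 1 sample, with −log10 (P value) on the left and fold enrichment on the right, for the 6 members with the highest rank in their weakest list, in that order from 1 (NC_015764.1 from 14450318) to 6 (NC_015772.1 from 4021953). Filled symbols are replicate 1 and open symbols replicate 2, and fold enrichment lies between 5.02 and 8.96 throughout.

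Some members ranked among the very strongest sites of a stage. These were picked out after their values had been seen. NC_015764.1 from 1275912 to 1276862 stood at place 41 of 26493 intervals in pupa replicate 1 and at place 183 of 31105 in pupa replicate 2. Its −log10 (P value) was 136 and 117 there, 59.1 and 75.5 in the adult, but 51.2 and 14.3 in egg replicates 1 and 2. NC_015776.1 from 3387579 to 3388437 was the highest ranked member in both adult samples, at place 160 of 20993 and place 425 of 24817, with a −log10 (P value) of 105 and 91.8. In the pupa it had 91.2 and 109, and in the egg only 20.8 and 5.78. The mean rank of these 2 was 89.4 and 80.6. A mean rank above 90 was reached by the first and second of the 6 members described before and by NC_015769.1 from 1324357 to 1325052. In this last region, fold enrichment was 9.29 and 5.98 in the egg, 10.1 and 8.54 in the pupa, and 11.2 and 7.0 in the adult. Egg replicate 2 was the sample that ranked each of these regions lowest.

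Some members ranked far higher in 1 stage than in the others, where weaker peaks kept them in the set. For each stage, the member with the widest gap in rank was picked out after the values had been seen. NC_015771.1 from 10152909 to 10153569 had a −log10 (P value) of 38.5 and 46.8 in the pupa, against 6.68 and 3.81 in the egg and 2.96 and 7.88 in the adult. NC_015764.1 from 11065879 to 11066359 showed this pattern for the adult, with 37.0 and 55.8 against 6.68 to 7.31 in the other 4 samples. For the egg it was seen in NC_015770.1 from 15600149 to 15601227, where the values were 23.0 and 23.4 in the egg and 2.60 to 7.59 in the others. NC_015773.1 from 4080232 to 4080821, the highest ranked member in egg replicate 2, was also picked out afterwards. Its egg and pupa peaks were strong, with values from 57.3 to 82.4, and its adult peaks weak, with 5.98 and 7.88.

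The pupa was the stage in which members most often ranked highest. Taking the mean rank of the 2 replicates, the pupa was highest for 940 members (50.2%), the adult for 563 (30.1%) and the egg for 368 (19.7%). Both pupa samples ranked above all 4 egg and adult samples in 354 members (18.9%). The corresponding number was 183 (9.78%) for the adult and 72 (3.85%) for the egg. The egg was the lowest of the 3 stages for 794 members (42.4%) and the pupa for 364 (19.5%). Regions with 1 larval peak had the same order, with the pupa highest in 43.6%, the adult in 32.1% and the egg in 24.3%. Both pupa samples ranked above all 4 egg and adult samples in 17.2% of them. In regions with a peak in both larva samples the order was different, with the adult highest in 40.9%, the pupa in 35.3% and the egg in 23.8%. These shares are side by side without a test, since the groups of regions were formed from the same lists. Pupa replicate 2 had the longest list of all, and a peak at the same place in a list gets a higher percentile there.

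Typical members were modest peaks. The 2 members nearest to the median were NC_015770.1 from 10572188 to 10572992 and NC_015767.1 from 12040214 to 12040798. In the former, the fold enrichment was 4.91 and 4.41 in the egg, 2.73 and 4.06 in the pupa, and 3.09 and 3.25 in the adult. In the latter it was 3.35 and 6.21, 3.91 and 4.65, and 2.79 and 3.23. In the latter, the 2 egg values enclosed both pupa values.

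The 3 weakest members by mean rank ranked low in all 6 samples, at the percentile of 23.9 or below. The weakest, NC_015764.1 from 8932234 to 8932791, showed a fold enrichment of 1.87 to 2.49 and a −log10 (P value) of 3.57 to 5.32 over the 6 samples. For NC_015778.1 from 640709 to 641243 and NC_015774.1 from 7315872 to 7316500 the fold enrichment was 2.0 to 2.45 and 1.88 to 3.09. Their summits in the 6 samples lay 279 to 345 bp apart.

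At the edge of the rule, the peak calls turned on small differences. NC_015763.1 from 10528849 to 10529329 and NC_015765.1 from 1239606 to 1240036 were the first by position of 10 members tied at the lowest −log10 (q value) in their weakest list, 1.31 in adult replicate 1 for all 10. Their −log10 (P value) in that sample was 2.60, while in egg replicate 1 it was 22.9 and 16.1. Just outside the rule lay NC_015767.1 from 4288890 to 4289933, which had a single larval peak with a −log10 (P value) of 2.74 in replicate 1, the weakest interval of that list. NC_015767.1 from 5956318 to 5957007 was left out by a peak of 2.85 in larva replicate 2, the last of 7875. In all, 71 members (3.79%) had a −log10 (q value) below 2 in at least 1 list, and 52 regions (2.22% of those with 1 larval peak) were excluded by a larval peak below 2.

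Members were narrower than the other regions found in the egg, pupa and adult. Their median width was 561 bp, with quartiles of 436 and 727 bp, compared with 598 bp for regions with 1 larval peak and 814 bp for regions with both. The narrowest, NC_015776.1 from 7638690 to 7638922, had 233 bp and a fold enrichment of 2.59 to 4.24. At 2121 bp, NC_015779.1 from 318226 to 320346 was the widest, but its summits lay 1675 bp apart, so that several adjacent peaks were chained there. A merged region widens with each interval that joins it, and the members hold intervals of 6 lists rather than 8. Single intervals were narrower too, with a median of 370 ± 49.6 bp (SD, n = 6 lists) in the members and 607 ± 73.4 bp (SD, n = 6 lists) in regions with a peak in both larva samples. In the weakest decile by mean rank, the median width was 559 bp for members and 636.5 bp for regions with both larval peaks, and in the fifth decile it was 580 and 747 bp. The order was reversed in the seventh decile, which held 36 members, with 849.5 and 775 bp. It was also reversed in the strongest decile, which held 1 member, with 1192 and 1025 bp. In all other deciles the members were narrower.

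Width and strength were not interchangeable. Ordered by width, the share of the 9093 regions without a larval peak went from 41.1% in the narrowest decile to 5.16% in the widest, a smaller span than by rank. The 47 members of the widest decile, at 1243 bp or more, had a median mean rank of 54.3, close to the 55.8 of the 374 members in the narrowest. For regions with both larval peaks the median was 92.0 in the widest and 76.7 in the narrowest decile.

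The 6 samples mostly marked the same spot. The best intervals of all 6 shared at least 1 base in 1735 members (92.7%), over a median of 227 bp. The summits of the 6 samples lay a median of 66 bp apart, and within 100 bp in 1217 members (65.0%). In regions with a peak in both larva samples the median was 47 bp. A single interval in each of the 6 lists was found in 1630 members (87.1%), and a single summit in each in 1095 (58.5%), against 78.2% and 39.6% of regions with both larval peaks. Regions with 1 larval peak were close to the members, at 86.9% and 55.6%.

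Members were found on all 18 chromosomes, from 41 on NC_015779.1 to 153 on NC_015768.1. Relative to all regions found in the 6 other samples, they made up 16.6% (95% Clopper-Pearson interval 12.5% to 21.3%) on NC_015777.1 and 24.6% (20.6% to 29.0%) on NC_015774.1, with the rest in between and an SD of 1.95 percentage points over the chromosomes. The interval left out the overall 20.6% on 1 chromosome of 18, NC_015772.1, where the share was 17.5% (14.9% to 20.4%). Per Mb up to the last region of a chromosome, there were 6.84 members on NC_015770.1 and 12.7 on NC_015778.1. The density of all regions with a peak in the 6 other samples moved with it, at 33.2 and 59.6 per Mb. No chromosome stood far apart.

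**Figure D5:**
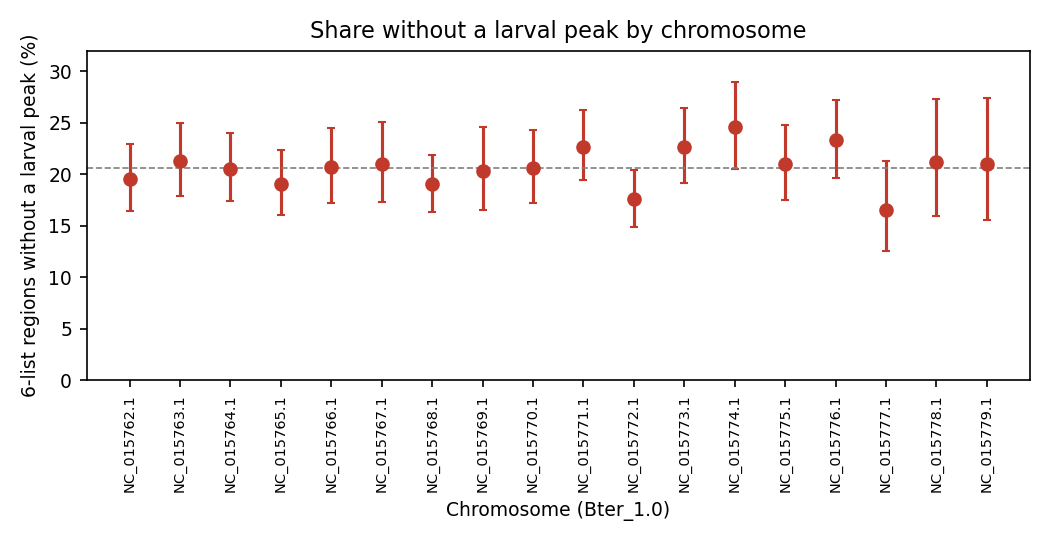
Points give, for each of the 18 chromosomes, the share (%) of regions with a peak in all 6 egg, pupa and adult samples that had no larval peak, with 95% Clopper-Pearson intervals. The dashed line is the share over all chromosomes, 20.6%, and the chromosomes range from 16.6% to 24.6%.

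Along the chromosomes, members were scattered among other open regions. The next region with a peak in the 6 other samples was again a member for 410 of 1867 members (22.0%), and a member followed 1456 of 7208 other regions (20.2%). Of 1461 runs of adjacent members, 1147 held a single member, and the longest, found in 2 places, held 5. Among fixed windows of 100 kb, 1831 held a region with a peak in the 6 other samples, and 1082 held a member. The fullest, NC_015775.1 from 5100001 to 5200000, held 7 members among its 12 regions with a peak in the 6 other samples. Those 7 were 383 to 806 bp wide and had mean ranks from 36.3 to 66.9.

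The nearest other region with a larval peak was a median of 4675 bp from a member, and within 2 kb for 556 members (29.7%). For 420 members (22.4%) there was none within 10 kb. For regions with a peak in both larva samples, this distance had a median of 3290 bp, and 38.6% of them had another region with a larval peak within 2 kb. From a region with a peak in all 8 samples, members were a median of 10217 bp away. This distance was 9481 bp for regions with 1 larval peak, and 8251 bp to another such region for regions with both.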

How the data were processed

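Peak lists of 8 ATAC-seq samples, 2 each of egg, larva, pupa and adult, were analysed. The authors filtered reads with SOAPnuke, aligned them to Bter_1.0 with Bowtie2 2.2.5, reporting many alignments per read, and used MACS2 2.2.5 to call the peaks of every sample separately. The authors' shift and extension centre each window on a cut site, a usual setting for ATAC-seq. No control library, removal of duplicates or offset for the transposase is named in the sources used here. The deposited lists give, per summit, a fold enrichment (a ratio to local background), the p-value and the q-value as −log10, and a score derived from the latter. Read counts are not part of these lists. The study states the mapped reads of each sample, with larva replicate 2 the deepest and larva replicate 1 below every egg and pupa sample, and they were not used here.

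Distinct intervals on contigs beginning with NC_ were kept, with the best summit by −log10 (P value) and the highest fold enrichment, and merged at 1 bp of overlap. Percentile ranks were taken within each list. Shares have exact Clopper-Pearson intervals at the 95% level. The merging was tested on simulated data with well separated sites. Neighbouring sites could not be chained there, so the chaining seen in the widest member was not covered. Coordinates are 1-based. Regions were named by a rule: the 6 members highest in their weakest list, the 2 nearest the median, the 3 weakest, the widest and narrowest, the fullest window, and the regions at the edge of the rule. Members and rule were chosen with earlier results of these data known. Groups come from the sample labels. No test was run, since the rule uses the calls of all lists. The alternatives changed the list length, threshold, overlap, contigs, ranking and replicates. Gene positions and sequence of Bter_1.0 were not used here. Python 3.11.15, numpy 2.4.6, pandas 2.3.3, scipy 1.17.1 and matplotlib 3.10.9 were used.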

Additional observations from a re-analysis of the deposited data

Results flagged for a closer look

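Unplaced contigs of Bter_1.0 were outside the comparisons. On them, 264 regions on 68 contigs had a peak in all 6 egg, pupa and adult samples and in neither larva sample, which is 7.24% (95% Clopper-Pearson interval 6.42% to 8.13%) of 3646 regions with a peak in those 6 samples.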

How the results depend on the processing

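With lists of equal length there were 72 members (2.12% of regions with a peak in the 6 other samples), their median rank was 84.01, 100% ranked above 50 and their median width was 699 bp. Ranks were still taken within the full lists, where all intervals kept by this cut rank above 50. The 100% was thus fixed in advance, and the median rank was raised by the cut. With −log10 (P value) of at least 10 in the 6 lists alone there were 424 members (7.52%, against 20.6% in the lists as deposited). Their median rank was 70.0, with 100% above 50. With this threshold in all 8 lists there were 1385 members (24.6%), a higher share than in the lists as deposited. Their median rank was 73.3, again with 100% above 50, and their median width 632 bp. A threshold removes the weak intervals of the full lists, so it raises these ranks in advance. By the lowest rather than the mean rank over the 6 lists, the median rank was 24.1 and 14.9% of members lay above 50. Leaving out each replicate in turn gave 1944 to 3985 members, shares of 20.8% to 43.8%, median ranks of 51.3 to 61.1, 53.2% to 73.4% of members above 50, 0.100% to 0.769% without a larval peak in the strongest decile, and widths of 512 to 575 bp. The highest of these, apart from the width, came without larva replicate 1, where the rule rests on the shorter larval list alone. The share without a larval peak in the strongest decile was 0 with equal lengths, with either threshold and with the lowest rank (0 of 340 to 910 regions in the decile, where a count of 0 allows up to 0.882% and 0.330%) and 0.0785% to 0.111% in the other settings. Of 63 values under the other settings, 50, among them the 7.52%, moved by less than a spread between lists or, for the count, less than 1.5 times. For ranks, the share above 50 and width, the spread was the SD over the 6 lists, which includes differences between stages. For width it was taken on single intervals. For the shares without a larval peak it was the SD between the shares missing in each larva list (14.7 percentage points over all regions). The fall from 20.6% to 7.52% is small only by this wide measure. The setting that asks for a base shared by all 6 intervals (1735 members) was chosen after the data were seen. No paired analysis was possible because the results come from no test. Reads behind a region without a peak are not in the lists, which limits what the absence of a larval peak can show.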
